A study of Chlamydomonas reinhardtii with 12 samples.

Results

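Triacylglycerol, the storage oil of green algae, is made by a small set of acyltransferases and kept in lipid droplets, and 7 genes of this pathway are described here in Chlamydomonas reinhardtii after 4 weeks of darkness. They were chosen by gene identity: the lipid droplet protein MLDP1 (Cre09.g405500), the acyltransferases DGAT1 (Cre01.g045903), DGTT1 (Cre12.g557750), DGTT2 (Cre02.g121200), DGTT3 (Cre06.g299050) and PDAT1 (Cre02.g106400), and the lipase PGD1 (Cre03.g193500). Of these 7, 6 had values among the 17744 identifiers of the count table, and DGTT2 is not analysed here. The table gives identifiers without symbols, so the pairing of symbol and identifier rests on general knowledge and could not be checked here.

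The study set knockouts of phytoene desaturase, an early enzyme of carotenoid synthesis, against their parental line CC-3403. The 6 knockout libraries (PDSKO) came from line A2 (PDSKO 5), line D2 (PDSKO 6) and line E10 (PDSKO 1 to 4), all derived from CC-3403. The 6 parental libraries (WT) are numbered WT 1 to WT 6. All cells were vegetative and grew in liquid TAP, an acetate medium, in darkness at 25 °C; WT medium held 10 µg/mL arginine and PDSKO medium none. PDSKO cells were also sorted by flow cytometry to leave out plasmid-bearing cells without the knockout and possible revertants. Medium and sorting therefore went with genotype, and their parts in any difference cannot be told apart. Sample titles fall into 2 sets, with A2, D2 and WT 4 to 6 in the second and E10 and WT 1 to 3 in the first. In the titles of WT 1 to 3 the strain number is not that of CC-3403, which nothing in the labels explains.

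In the last step of the pathway an acyl chain is added to diacylglycerol. DGAT1 and the DGTT enzymes, which are type 1 and type 2 diacylglycerol acyltransferases, take the chain from acyl-CoA, whereas PDAT1 takes it from a membrane lipid. PGD1 is a lipase that releases fatty acids from newly made plastid galactolipid, and these can enter triacylglycerol. MLDP1 coats the droplet surface and is known for its rise in algae starved of nitrogen. Acetate medium provides carbon for fatty acid synthesis without light.

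The depth of the PDSKO libraries set the limits of what could be seen. Total counts were 475103 in A2, 36062 in D2 and 6279 to 40429 in E10, against 1393032 to 35992976 in WT. Levels are given as CPM, counts per 1000000 counts of the library, and are not divided by length, as each read comes from a transcript's 3′ end. Where a library had 0 counts, 3 counts were taken as the most that the zero allows, which was 6.31 CPM in A2, 83.2 CPM in D2, 74.2 to 478 CPM in single E10 libraries and 37.0 CPM over E10 as a whole. In A2 a single identifier, Cre07.g323800, held 43.3% of all counts (43.1 to 43.4% by Wilson 95% interval), against 0.260 to 5.33% in the other libraries. The targeted gene, Cre12.g509650 (PDS1), had 0 counts in A2 and D2, which allows up to 5.87 CPM over both, set mostly by A2, against 48.0 ± 26.7 CPM in WT 4 to 6 (SD, n = 3). In E10 it had 4 counts, or 49.3 CPM (Poisson 95% interval 13.4 to 126), against 75.4 ± 34.0 CPM in WT 1 to 3, so no loss of the target transcript was detectable in that line. All intervals and floors cover counting error only, and no label says whether the libraries of each line were grown as separate cultures, so the p-values speak only for the spread among these libraries, which may be technical. Counts from whole cultures cannot tell fewer cells with a transcript from less of it per cell.

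MLDP1 was close to the detection limit throughout. It had 0 counts in all 6 PDSKO libraries, whereas WT 4 had 4 counts (0.340 CPM) and WT 5 and WT 6 had 0. WT 1, WT 2 and WT 3 had 20, 21 and 10 counts, or 0.665, 0.583 and 0.704 CPM. The values of WT 1 to 3 lay close together and above those of WT 4 to 6, but the zeros of WT 5 and WT 6 allow up to 1.12 and 2.15 CPM, more than WT 1 to 3 had. The mean over WT was 0.382 ± 0.322 CPM (SD, n = 6), below the 5.06 CPM that 0 of 592307 pooled PDSKO counts allows, so no loss or gain of this coat protein transcript was detectable in PDSKO. MLDP1 lay above 11.7% of the 15893 identifiers detected in WT, whose median was 7.62 CPM, and it had too few counts for the test in any comparison.

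**Figure D1:**
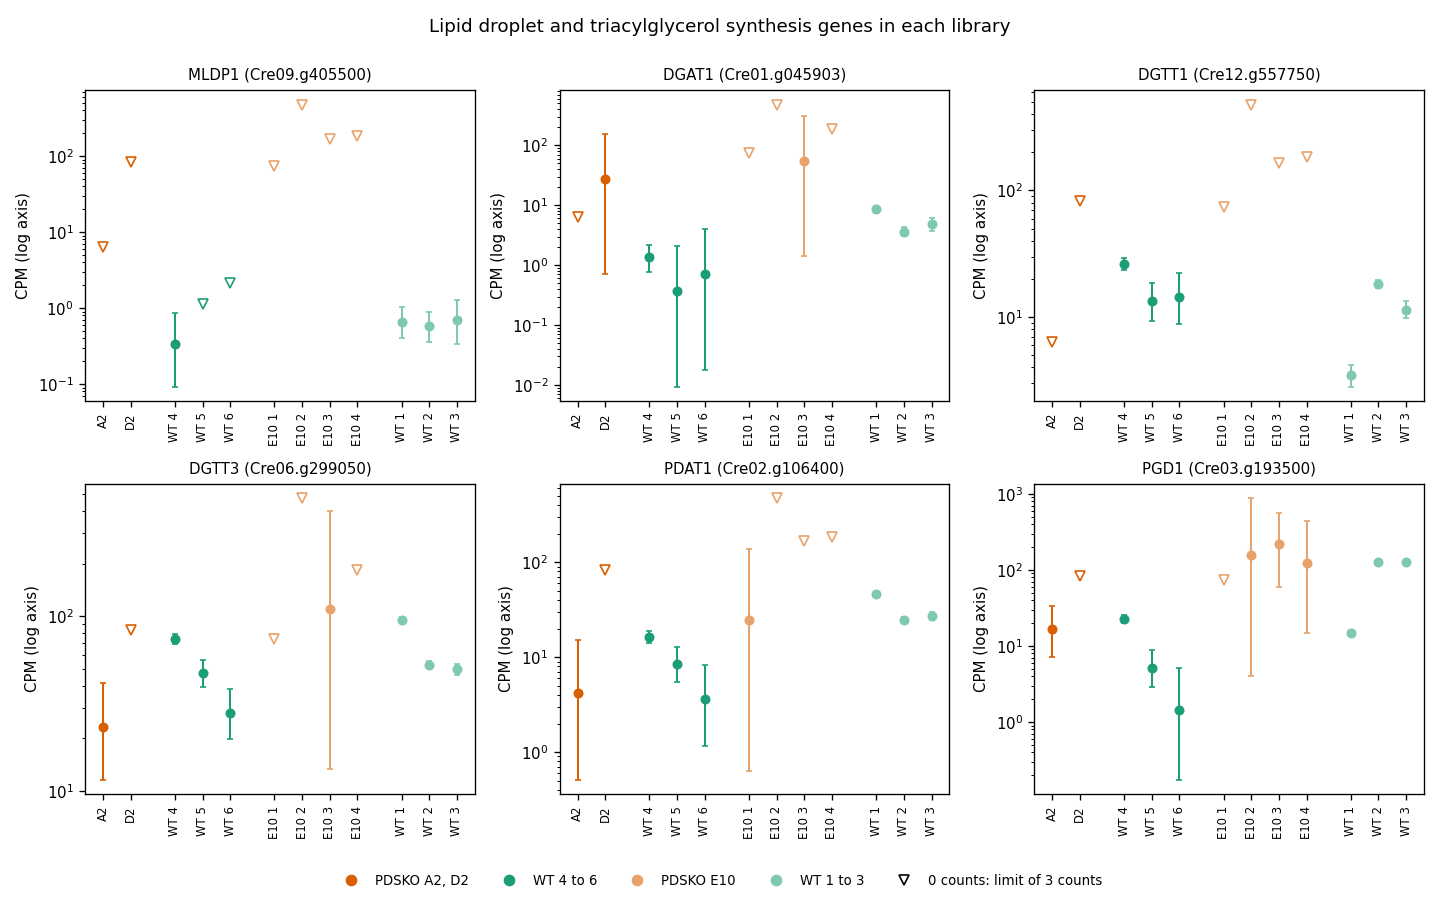
Level of each of the 6 genes with values in every library, in CPM on a log axis, with A2 and D2, WT 4 to 6, E10 (E10 1 to 4 are PDSKO 1 to 4) and WT 1 to 3 from left to right; points are levels, bars exact Poisson 95% intervals, and open triangles mark the limit of 3 counts in libraries with 0 counts. PDSKO points rest on 1 to 11 counts or are zeros, and the limits of the E10 libraries, 74.2 to 478 CPM, lie above most WT levels.

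Of the 4 acyltransferases among the members with values, DGTT3 had the highest mean in WT and the most counts in PDSKO. It stood at 23.2 CPM in A2 (11 counts) and 0 in D2, against 73.8, 47.3 and 28.0 CPM in WT 4, 5 and 6. A2 lay below all 3 of these parental libraries, but with Cre07.g323800 left out of the totals it stood at 40.8 CPM, above WT 6 at 29.6 CPM, and the zero of D2 allows more than any of them had. In E10 its 2 counts were both in PDSKO 3 (110 CPM), and WT 1, 2 and 3 had 94.96, 52.8 and 49.6 CPM. Pooled over A2 and D2 the level was 21.5 CPM (Poisson 95% interval 10.7 to 38.5), against a mean of 49.7 ± 23.0 CPM in WT 4 to 6 (SD, n = 3). That is a ratio of 0.433 with a counting interval of 0.216 to 0.774, which covers the PDSKO counts and not the spread between WT libraries. Without Cre07.g323800 the ratio was 0.702 with an interval of 0.350 to 1.26, which includes 1. Over E10 the 2 counts gave 24.6 CPM (2.99 to 89.0), a ratio of 0.375 (0.0454 to 1.35) to the 65.8 ± 25.3 CPM of WT 1 to 3.

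DGTT1 was detected in every WT library and in no PDSKO library. Its levels were 26.3, 13.4 and 14.4 CPM in WT 4, 5 and 6 and 3.46, 18.3 and 11.5 CPM in WT 1, 2 and 3, so WT 1 was the lowest. The 0 of 511165 counts of A2 and D2 put this type 2 enzyme at least 3.07-fold lower than the 18.0 ± 7.16 CPM of WT 4 to 6 (SD, n = 3), with the floor taken over both lines. With Cre07.g323800 left out of the totals the bound was 1.89-fold. Over all 6 PDSKO libraries it was at least 2.87-fold lower than the WT mean of 14.5 ± 7.55 CPM (n = 6), or 1.92-fold without Cre07.g323800. These bounds rest on A2, since the limit of D2 alone and that of E10 lie above the WT levels, and E10 gives no bound. Each bound divides a WT mean by a counting limit and leaves out the spread between WT libraries. WT 1 at 3.46 CPM itself lay below the pooled PDSKO limit of 5.06 CPM.

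PDAT1 and DGAT1 were too sparse in PDSKO for a level to be read. PDAT1 had 2 counts in A2 (4.21 CPM) and 0 in D2, against 16.4, 8.57 and 3.59 CPM in WT 4, 5 and 6. In E10 it had 1 count, in PDSKO 1 (24.7 CPM), against 45.9, 24.8 and 27.2 CPM in WT 1, 2 and 3. The pooled ratios to the WT libraries of the same set were 0.411 (0.0498 to 1.48) for A2 and D2 and 0.378 (0.00956 to 2.10) for E10, intervals that include a ratio of 1. Without Cre07.g323800 the ratio of A2 and D2 was 0.668 (0.0809 to 2.41). DGAT1, the type 1 enzyme, had 0 counts in A2 and 1 count in D2 (27.7 CPM), against 1.36, 0.373 and 0.718 CPM in WT 4, 5 and 6. In E10 it had 1 count, in PDSKO 3 (55.2 CPM), against 8.51, 3.61 and 4.86 CPM in WT 1, 2 and 3. A single count gave ratios of 2.40 (0.0606 to 13.3) in A2 and D2 and 2.18 (0.0551 to 12.1) in E10, which set no direction, and the A2 and D2 ratio was 3.89 (0.0984 to 21.7) without Cre07.g323800.

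PGD1 ranged from 1.44 to 128.5 CPM within WT alone. It had 8 counts in A2 (16.8 CPM) and 0 in D2, against 22.9, 5.22 and 1.44 CPM in WT 4, 5 and 6. In E10 it had 0, 1, 4 and 2 counts in PDSKO 1 to 4 (0, 159, 221 and 122 CPM), against 14.7, 128.5 and 128.3 CPM in WT 1, 2 and 3. WT 1 thus stood far below WT 2 and WT 3, and E10 had its counts in 3 of 4 libraries. The pooled level of this galactolipid lipase was 15.7 CPM (6.76 to 30.8) in A2 and D2, a ratio of 1.59 (0.685 to 3.13) to the 9.87 ± 11.5 CPM of WT 4 to 6. Without Cre07.g323800 the ratio was 2.59 with a counting interval of 1.12 to 5.11, which leaves out the spread between the WT libraries, and A2 stood at 29.7 CPM, above WT 4 at 23.4 CPM. It was 86.3 CPM (34.7 to 178) in E10, a ratio of 0.953 (0.383 to 1.96) to the 90.5 ± 65.6 CPM of WT 1 to 3.

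Relative to each other, the 4 acyltransferases with values had DGTT3 first in A2 and in all 6 WT libraries. Of their summed counts, DGTT3 took 84.6% in A2 (11 of 13, Wilson 95% interval 57.8 to 95.7%), against 63.5 ± 4.03% in WT 4 to 6 (SD, n = 3), which lies within that interval. DGTT1 took none of the 14 counts of A2 and D2, which allows up to 21.5% by the Wilson interval, against 22.3%, 19.3% and 30.8% in WT 4, 5 and 6. That limit lies inside the range of these 3 libraries. Among WT, PDAT1 took 11.3 ± 3.23% in WT 4 to 6 and 28.1 ± 2.75% in WT 1 to 3, with no overlap between the sets. DGAT1 took 1.08 ± 0.506% in WT 4 to 6 and 4.80 ± 1.03% in WT 1 to 3, also without overlap, and DGTT3 took 56.2 ± 5.16% in WT 1 to 3. The DGAT1 shares of WT 5 and WT 6 rest on 1 count each, with Wilson 95% intervals of 0.0945 to 2.97% and 0.272 to 8.21%. That of WT 6 covers the 3.63 to 5.57% of WT 1 to 3, so counting error does not separate WT 6 from that set. DGTT1 took 24.1 ± 5.97% in WT 4 to 6 and 10.99 ± 8.15% in WT 1 to 3, where WT 1 stood at 2.26% and WT 2 at 18.4%. These shares compare counts at transcript 3′ ends.

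**Figure D2:**
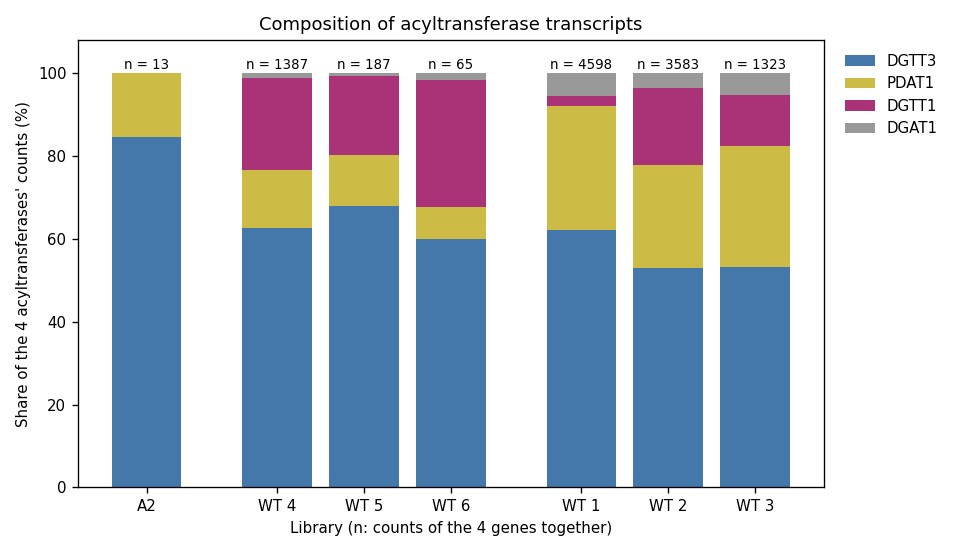
Stacked bars give the share, in percent, of the summed counts of DGTT3, PDAT1, DGTT1 and DGAT1 in A2, in WT 4 to 6 and in WT 1 to 3, 1 bar per library, with the number of counts above each bar. DGTT3 takes 84.6% of only 13 counts in A2 and 53.1 to 67.9% in WT, and PDAT1 takes a larger share in WT 1 to 3 than in WT 4 to 6.

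The order of mean levels in WT was DGTT3 (57.8 ± 23.4 CPM), PGD1 (50.2 ± 61.0), PDAT1 (21.1 ± 15.2), DGTT1 (14.5 ± 7.55), DGAT1 (3.24 ± 3.12) and MLDP1 (0.382 ± 0.322; SD, n = 6 each). The ranges of all neighbours in this order overlapped over the 6 libraries. DGTT3 lay above 89.4% of the identifiers detected in WT, PGD1 above 87.9%, PDAT1 above 74.6%, DGTT1 above 66.3% and DGAT1 above 31.6%. Within WT 4 to 6, DGTT3 stood clear of DGTT1, and PDAT1, DGAT1 and MLDP1 followed each other without overlap, while DGTT1, PGD1 and PDAT1 overlapped. Within WT 1 to 3, PGD1 and DGTT3 overlapped, as did DGTT1 and DGAT1, and DGTT3, PDAT1 and DGTT1 did not. Counting error does not separate DGTT3 in WT 3 (46.0 to 53.4 CPM) from PDAT1 in WT 1 (43.6 to 48.4 CPM).

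The comparison of PDSKO with WT asks whether loss of phytoene desaturase changes these transcripts in darkness, and no member passed the test. DGTT3 had a log2 fold change of -1.27 ± 0.75 (SE) with an edgeR adjusted p of 0.335, and PGD1 of -0.22 ± 0.95 with 0.920. These were the 2 members with enough counts to be tested. Over all 4915 identifiers tested edgeR called 0, which is 0%, with 1006 at an unadjusted p under 0.05, and DESeq2 called 423. The median log2 fold change of all identifiers was -0.38 with TMM scaling and 0.29 with RLE scaling, under which PGD1 was at 0.58 and DGTT3 at -0.72. The sign of PGD1 was also positive without WT 2 (0.49) or WT 3 (0.52).

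Lines A2 and D2 were then compared with WT 4 to 6 of the same title set. Of the members 4 were tested and none passed, where edgeR called 10.9% of 8042 identifiers, 3.38% higher and 7.49% lower. DGTT1 was the nearest, with an edgeR adjusted p of 0.0562. It passed without the filter on low counts (0.0466) and did not pass with a replicate block (0.832). That block cannot decide, as WT 4 has no partner in it and so few libraries leave hardly any residual degrees of freedom. Leaving out D2 leaves A2 alone on the PDSKO side, so no p-value is read from that fit. DGTT1 had 0 counts in every PDSKO library and entered the test only through its WT counts, so a low p is partly built in. Its fitted fold change depends on the prior count, and the bound above stands in its place. DGTT3 had -1.43 ± 0.97 (adjusted p = 0.302), PDAT1 -1.32 ± 1.33 (0.498) and PGD1 0.50 ± 1.11 (0.784), against a median of -0.92 over all identifiers. Without WT 4 the value of DGTT3 was -0.62. Without A2 no count of DGTT3, PDAT1 or PGD1 is left on the PDSKO side, and the fitted values of -10.76, -8.38 and -8.41 then depend on the prior count. Both DGTT1 and DGTT3 had every PDSKO value below every WT value, as did 41.0% of all identifiers, though the zeros of D2 allow up to 83.2 CPM and the A2 value of DGTT3 overlaps WT without Cre07.g323800. The median over all identifiers was -0.42 under RLE scaling, and DGTT1, DGTT3 and PDAT1 were negative under it too. For line E10 against WT 1 to 3 no member had enough counts, and edgeR called 0 of 449 identifiers, or 0%, with 6 at an unadjusted p under 0.05 and 1 called by DESeq2.

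The effect in A2 and D2 was also set against the effect in E10, each relative to the WT libraries of its set, by an interaction term in a fit of 4 groups. The difference was 1.23 ± 1.54 for DGTT3 (log2 scale, SE, edgeR adjusted p = 0.735), 1.58 ± 1.55 for PGD1 (0.628), 1.37 ± 1.90 for PDAT1 (0.863) and 1.86 ± 2.76 for DGAT1 (0.801). None of these 4 passed, and their standard errors all exceed 1 log2 unit. DGTT1, without a count in any PDSKO library, was also tested, but its SE of 1796 allows no reading. Over all identifiers this fit called 1 of 9044, so the lack of calls is not particular to these genes.

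The parental sets themselves, which do not differ in labelled genotype, gave the most precise comparison of these genes. WT 1 was unlike the other libraries of its set. The chi-square per degree of freedom between libraries, which grows with depth, was 1107 for WT 1 against WT 2 and 634 against WT 3. It was 33.7 for WT 2 against WT 3, and 481 for WT 1 against WT 4 of the other set. Of the members 5 were tested and 4 had negative log2 fold changes, WT 4 to 6 over WT 1 to 3, but none passed, where edgeR called 11.1% of 13040 identifiers, 9.31% higher and 1.82% lower. PGD1 had a log2 fold change of -2.73 ± 0.87 (SE, adjusted p = 0.0769). It passed in 4 of 13 alternatives. These were DESeq2 (adjusted p = 0.00738), the 4-group fit (0.0438) and the edgeR fits without WT 1 (0.00277) or WT 4 (0.0484). Without WT 1 edgeR called 3288 identifiers, against 1451 with all libraries. PGD1 did not pass in edgeR without WT 2 (0.153), WT 3 (0.145), WT 5 (0.266) or WT 6 (0.195). Its levels also overlapped between the sets, with WT 1 at 14.7 CPM below WT 4 at 22.9 CPM. DGAT1 had -2.40 ± 0.87 (edgeR adjusted p = 0.114) and PDAT1 -1.45 ± 0.55 (0.130), both with every WT 4 to 6 library below every WT 1 to 3 library, as had 22.2% of all identifiers. DGTT1 had 1.15 ± 0.57 (0.240) and DGTT3 -0.11 ± 0.46 (0.908), and the sign of DGTT3 turned without WT 1 (0.44) or WT 6 (0.10). At an unadjusted p under 0.05 there were 3 of the 5 (25.4% of all 13040 identifiers), and DESeq2 called 1 (17.2% of all). With library totals alone the median of all identifiers moved to -0.43, against -0.06 with TMM, and 4 of the 5 stayed negative. Within WT 4 to 6 the levels of DGTT3, PDAT1 and PGD1 followed the order of the total counts, which were 11768160, 2683856 and 1393032 in WT 4, 5 and 6, and the part of depth in these differences was not tested.

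The other genes of lipid metabolism were taken from a list of 35, grouped as fatty acid synthesis, desaturases, membrane lipids, other acyltransferases, fatty acid oxidation and regulators. In PDSKO against WT 22 were tested and none passed, with 15 negative and a median log2 fold change of -0.59 against -0.38 for all identifiers. In A2 and D2 against WT 4 to 6, 1 of 31 rose and none fell, a share near the 3.38% of all identifiers called higher, with 21 negative and a median of -0.82 against -0.92. The 14 fatty acid synthesis genes had 13 negative values and a median of -1.65, and none passed. Negative values were common in this comparison, as the median over all identifiers was -0.92 with TMM and -0.42 with RLE scaling. In E10 against WT 1 to 3, 5 were tested and none passed.

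The 1 gene that rose was MGD1 (Cre13.g585301), which makes the plastid galactolipid monogalactosyldiacylglycerol, the class of lipid PGD1 acts on. It stood at 61.0 CPM in A2 (29 counts) and 222 CPM in D2 (8 counts), against 11.05, 5.22 and 0.718 CPM in WT 4, 5 and 6. The log2 fold change was 3.80 ± 0.87 (SE, edgeR adjusted p = 0.0174), where 3.38% of all identifiers were called higher. The call ended in edgeR without WT 4 (adjusted p = 0.0970), WT 5 (0.0844) or WT 6 (0.0760). It also ended with the replicate block (0.832), which cannot decide here for want of residual degrees of freedom. WT 1, 2 and 3 had 15.3, 24.1 and 26.9 CPM, still below A2, and the 2 counts of E10 lay in PDSKO 3 and 4. Over all 12 libraries MGD1 did not pass in PDSKO against WT (edgeR adjusted p = 0.0864).

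Between the parental sets 34 of the 35 were tested, with 4 lower and 4 higher in WT 4 to 6 than in WT 1 to 3. Of all 13040 identifiers, 1.82% were called lower and 9.31% higher. The plastid omega-6 desaturase FAD6 (Cre13.g590500) had 978, 928 and 802 CPM in WT 4, 5 and 6, against 9654, 8878 and 8824 CPM in WT 1, 2 and 3. Its log2 fold change was -2.95 ± 0.46 (SE, edgeR adjusted p = 0.00178), and it passed under all 13 alternatives tried. The knockout libraries had 1330 and 1497 CPM in A2 and D2 and 5733 to 13311 CPM in E10, and A2 had 2345 CPM without Cre07.g323800. The thiolase ATO1 (Cre17.g723650) of fatty acid oxidation had 72.8, 38.4 and 20.8 CPM in WT 4, 5 and 6, against 329, 396 and 296 CPM in WT 1, 2 and 3 (log2 fold change -2.62 ± 0.45, edgeR adjusted p = 0.00334). Its call ended only in the 4-group fit (0.0681). The acyl carrier protein ACP2 (Cre13.g577100) had 1598, 317 and 272 CPM in WT 4, 5 and 6, against 3073, 6810 and 7191 CPM in WT 1, 2 and 3 (-2.65 ± 0.67, edgeR adjusted p = 0.0307). The malonyl transferase MCT1 (Cre14.g621650), which loads malonyl groups on that carrier, had 79.0, 66.0 and 61.0 CPM in WT 4, 5 and 6, against 180, 250 and 254 CPM in WT 1, 2 and 3 (-1.32 ± 0.34, edgeR adjusted p = 0.0327). The calls of ACP2 and MCT1 held under 7 of 13 alternatives and ended without WT 2, WT 3, WT 5 or WT 6, where the adjusted p was 0.0620 to 0.174 for ACP2 and 0.0857 to 0.148 for MCT1. They also ended in the 4-group fit (ACP2 0.0557, MCT1 0.295) and in the fit of identifiers with 1 RefSeq transcript (ACP2 0.0786, MCT1 0.0834).

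The 4 higher genes were the ketoacyl synthase KAS1 (Cre11.g467723), the stearoyl desaturase FAB2 (Cre17.g701700), the acyl-CoA synthetase LCS2 (Cre13.g566650) and the acyl-CoA oxidase ACX2 (Cre05.g232002). They had 1049, 1401, 1323 and 205 counts over the second title set, knockout lines included, against 0, 0, 3 and 0 over the 7 libraries of the first. These are the 4 listed genes with more than 1 transcript in the RefSeq gene table. Of 3818 identifiers with at least 20 CPM in WT 4 to 6, 219 had at most 3 counts over the first set, and 216 of those (98.6%) had 2 or more transcripts, against 8.28% of all 3818. The reason for these zeros was not tested. All 6 triacylglycerol genes with values have 1 transcript. With the 4 genes left aside, 30 of the lipid genes were tested between the parental sets. In the fit of all identifiers, which called 1.82% lower, 4 of them were lower and none higher. In a fit of the 12220 identifiers with 1 transcript, added after seeing the data, FAD6 and ATO1 were still lower (edgeR adjusted p = 0.0167 and 0.0268) and ACP2 and MCT1 did not pass, where 0.499% of identifiers were called lower.

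**Figure D3:**
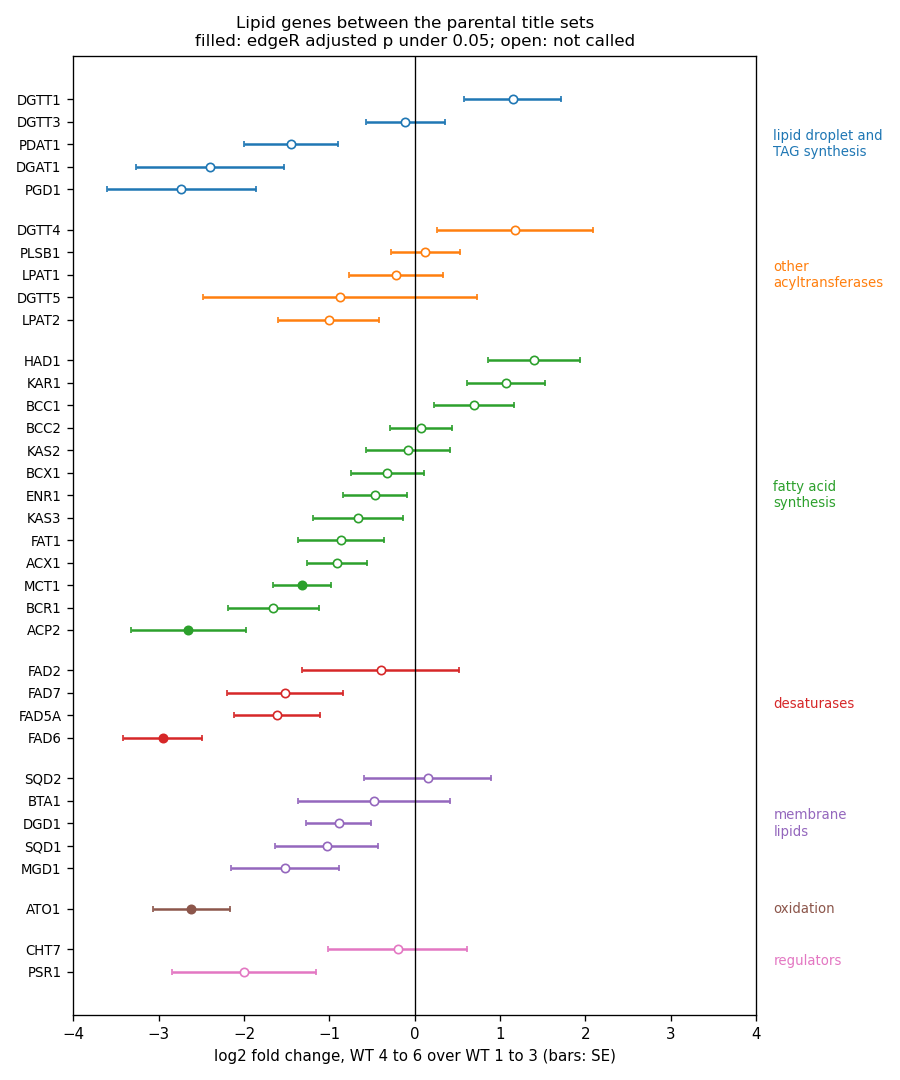
Points are edgeR log2 fold changes of WT 4 to 6 over WT 1 to 3 and bars their SE, for the 5 tested triacylglycerol genes and the 30 tested other lipid genes with 1 RefSeq transcript, grouped by role; filled points passed at an adjusted p under 0.05. The 4 filled points, FAD6, ACP2, ATO1 and MCT1, all lie below 0, and PGD1 at -2.73 and DGAT1 at -2.40 are as far below but have wider errors.

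**Figure D4:**
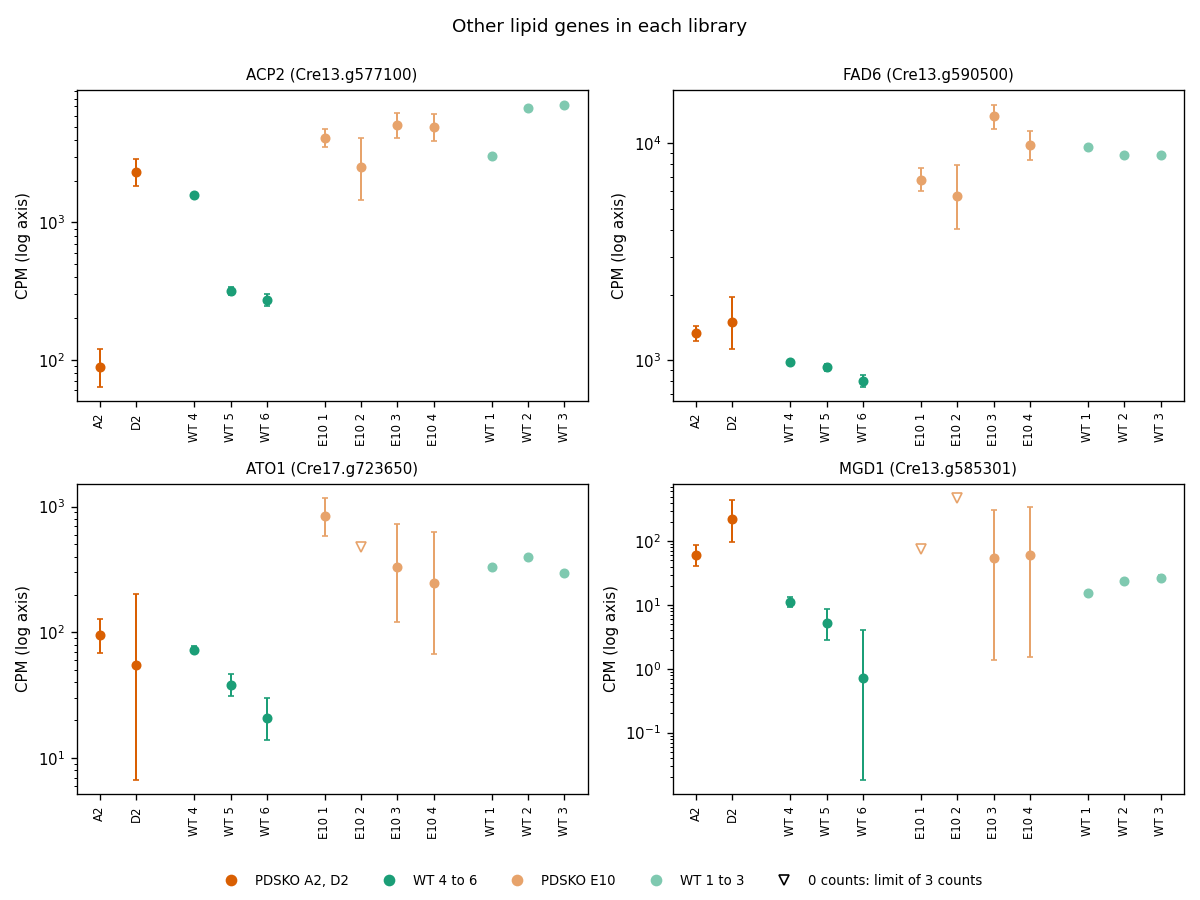
Level of ACP2, FAD6, ATO1 and MGD1 in every library, in CPM on a log axis, with A2 and D2, WT 4 to 6, E10 (PDSKO 1 to 4) and WT 1 to 3 from left to right; bars are exact Poisson 95% intervals and open triangles mark the limit of 3 counts in libraries with 0 counts. FAD6 lies between 802 and 1497 CPM in the second title set and between 5733 and 13311 CPM in the first. MGD1 rests on 37 counts over A2 and D2.

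In the groups where no gene passed, the gene with the smallest p between the parental sets is given. LPAT2 (Cre17.g738350), a lysophosphatidate acyltransferase earlier in glycerolipid synthesis, had 13.9, 2.98 and 3.59 CPM in WT 4, 5 and 6, against 20.05, 18.4 and 14.2 CPM in WT 1, 2 and 3 (log2 fold change -1.01 ± 0.59, edgeR adjusted p = 0.321). PSR1 (Cre12.g495100), a regulator of the response to phosphorus starvation, had 2.04, 0.373 and 1.44 CPM in WT 4, 5 and 6, against 9.34, 4.42 and 5.70 CPM in WT 1, 2 and 3 (-2.0 ± 0.84, edgeR adjusted p = 0.168). For both genes every WT 4 to 6 library lay below every WT 1 to 3 library, as for 22.2% of all 13040 identifiers. For LPAT2 this rests on WT 4 at 13.9 CPM (Poisson interval 11.9 to 16.2) and WT 3 at 14.2 CPM (12.3 to 16.2). Counting error does not separate these 2 libraries.

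The level pattern of MLDP1 over the 6 WT libraries was compared with 4218 identifiers of at least 20 CPM by the root mean square difference of centred log2(CPM + 1) profiles. The closest were Cre10.g438100 (0.0573), Cre16.g692450 (0.0636) and Cre16.g685700 (0.0761). With a pseudocount of 0.5 or 5 none of these 3 was among the closest 3, so the choice rests on the pseudocount, and the MLDP1 profile itself rests on 55 counts.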

How the data were processed

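Total RNA was made into CEL-Seq libraries, in which transcript 3′ ends are read. Per the labels' protocols, BWA MEM placed the second reads on the 281_v5.6 transcriptome, reads with several places were dropped and MapAndGo counted the rest. The submitters' processing notes also name edgeR; versions, and any collapse of molecular identifiers, are in none of the sources at hand. The authors deposited raw, whole-number counts of 12 columns, each matched to its sample by title, with 0 columns unmapped. RefSeq assembly v5.5 matched 17742 identifiers.

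Counts were fitted over the whole table with edgeR 4.0.16 (R 4.3.3): filterByExpr, TMM, glmQLFTest, two-sided, Benjamini-Hochberg at 0.05. Levels are CPM with exact Poisson or Wilson 95% intervals. The SE of an edgeR log2 fold change was back-calculated as its absolute value over the square root of the F statistic. It is approximate and need not match the p-value exactly. The test was tried on simulated counts. Of 4-fold changes it recovered 7.46% in PDSKO against WT and 0% in A2 and D2 against WT 4 to 6. Between the parental sets it recovered 4.48%, and in E10 against WT 1 to 3 it recovered 58.2%. Of 16-fold changes it recovered 62.1%, 42.4%, 68.2% and 89.4% in the same order. A gene that did not pass may therefore still differ by 4-fold or more. Alternatives were DESeq2 1.42.0, RLE and no scaling factors, no filter, Cre07.g323800 left out, a 4-group fit, a title-set factor, a replicate block, E10 summed and each library left out. The lowest chi-square per degree of freedom between libraries of a group was 3.95, so none was a repeat deposit.

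Members and lists were chosen with earlier results of these data known. Named were all members, PDS1, Cre07.g323800, other lipid genes past the threshold in any comparison or, where a role had none, the 1 with the smallest p between parental sets, and the 3 identifiers closest to MLDP1.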

Additional observations from a re-analysis of the deposited data

Results flagged for a closer look

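Single PDSKO libraries stood far from the others of their group for 3 genes, each time on 1 or 2 counts in a shallow E10 library. DGAT1 had 55.2 CPM in PDSKO 3 from 1 count, with 0 in the other E10 libraries. DGTT3 had 110.47 CPM in PDSKO 3 from 2 counts, where the next PDSKO library, A2, had 23.2 CPM and the other E10 libraries 0. PDAT1 had 24.7 CPM in PDSKO 1 from 1 count, where A2 had 4.21 CPM and the other E10 libraries 0. Values were compared in 14 groups of libraries. Where only 1 library of a group has any count, as in E10 for all 3 genes, the zeros alone fix the mark. The usual rate of about 1 in 20 groups marked by chance therefore does not hold here, and counts this low are not a level.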

How the results depend on the processing

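Members past the threshold numbered 0 in each comparison. PDSKO against WT gave 1 (DGTT1, edgeR adjusted p = 0.0365) without the filter. A2 and D2 against WT 4 to 6 gave 1 (DGTT1) without the filter and 0 without WT 4, WT 5 or WT 6. WT 4 to 6 against WT 1 to 3 gave 1 (PGD1) with DESeq2 and in the 4-group fit. With a library left out that last comparison gave 0 to 1. Identifiers called in PDSKO against WT were 164 with RLE, 4 with library totals alone, 1257 without the filter, 423 with DESeq2, 69 with the replicate block, 1 with E10 summed and 0 to 632 with a library left out (632 without PDSKO 1). In A2 and D2 against WT 4 to 6 they were 512 with library totals, 1470 without the filter, 18 with the block and 13 to 2486 with a library left out (13 without WT 4, 71 without WT 5, 127 without WT 6, 2486 without D2); RLE called 780, 438 higher and 342 lower, against 272 and 602. E10 against WT 1 to 3 had 1 with DESeq2, 3 in the 4-group fit and 0 to 1 with a library left out (1 without PDSKO 1). WT 4 to 6 against WT 1 to 3 had 2240 with DESeq2, 887 in the 4-group fit, 274 with only identifiers of 1 transcript (chosen after seeing the data) and 1119 to 3288 with a library left out (3288 without WT 1). PGD1 turned positive in PDSKO against WT with RLE (0.58), library totals (0.14), DESeq2 (0.68), the replicate block (0.41) and title set (0.15), and ranged from -1.18 to 0.52 with a library left out. With a library left out it ranged from -8.41 to 0.78 in A2 and D2, and DGTT3 from -0.44 to 0.44 between the parental sets. Replicate numbers gave correlations of -0.0926 to 0.382 over 6 pairs, with 5 of 6 above 0.1, and 4 of 6 PDSKO libraries were closest to their own number. This is a hint of pairing in the data, but number 4 was below 0.1 and no label gives the numbers a shared culture or day, so they were not treated as pairs. Of the log2 fold changes of members under the alternatives 140 kept direction and side, 6 moved past the threshold and 10 turned; the cause was not tested. PDSKO depth limits what zeros of MLDP1, DGAT1 and PDAT1 can show.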

Other observations

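A further type 2 diacylglycerol acyltransferase gene, DGTT5 (Cre02.g079050), was named after its values were seen. It had 22 counts in D2, or 610 CPM (Poisson 95% interval 382 to 924), and 0 in A2, where up to 6.31 CPM is allowed, and in E10. Among WT it was at 0.850, 0 and 0 CPM in WT 4, 5 and 6 and at 0, 2.25 and 0.774 CPM in WT 1, 2 and 3. The phosphorus starvation regulator PSR1 (Cre12.g495100) had 13 counts in the same library, or 360 CPM (192 to 616), against 0.373 to 9.34 CPM in WT, with 0 counts in A2. Neither gene had enough counts to be tested in A2 and D2 against WT 4 to 6, and line D2 is 1 library, so no replicate bears on these values. DGTT4 (Cre03.g205050), of the same enzyme family, had 0 counts in all 6 PDSKO libraries and 14.0, 9.69 and 7.90 CPM in WT 4, 5 and 6, against a pooled limit of 5.87 CPM over A2 and D2. Without Cre07.g323800 that limit was 9.87 CPM, above WT 6 at 8.34 CPM, and the gene did not pass (edgeR adjusted p = 0.101), so no drop was detectable.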
